A study of Mus musculus with 59 samples.

Results

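The type I interferon response was followed across the muscles of tumor-bearing mice through 9 of its genes: *Ifit1*, *Ifit2*, *Ifit3*, *Isg15*, *Irf7*, *Oasl2*, *Usp18*, *Rsad2* and *Stat2*. They were chosen by gene symbol, as 9 of the 47643 symbols in the expression table, and each symbol was found. RNA-seq was done on 59 muscle samples of female NCI Ath/nude mice, 4 months old, an athymic strain that lacks mature T cells. Each mouse carried a patient-derived human melanoma xenograft that either causes muscle wasting (cachectic, MAST360B/SJMEL030083_X2) or does not (non-cachectic, MAST552A/SJMEL031086_X1). Diaphragm mice also received intraperitoneal injections of rFibcd1, the recombinant form of a protein released by muscle whose effect on wasting the study asked about, or mock injections of PBS with BSA. The diaphragm groups were cachectic with rFibcd1 (n = 10), cachectic with mock (n = 10), non-cachectic with rFibcd1 (n = 10) and non-cachectic with mock (n = 9). The study's own account of the cachectic diaphragms names fewer mice than the table has columns, and which columns those are is not given in the sources used here. Tibialis anterior and soleus, muscles of the lower leg, were sampled from cachectic and non-cachectic mice with no rFibcd1 named in their labels (n = 5 each). Each melanoma was represented by 1 xenograft line, so a difference between the melanoma groups is a difference between these lines. No group without a tumor was analysed here.

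Type I interferons are secreted alarm signals, best known from viral infection. They bind a receptor made of Ifnar1 and Ifnar2, and the kinases Jak1 and Tyk2 then activate Stat2, which enters the nucleus with Irf9 and switches on interferon-stimulated genes. Muscle fibers, vessel cells and resident macrophages can all mount this response, and interferon gamma, a signal of T and NK cells, induces an overlapping set of genes.

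The unit of every level is TPM, a transcript abundance scaled per length that sums to the same total in each library, so sequencing depth is unknown. A difference is a log2 difference of TPM + 1, which understates changes of low genes, and a gene was called when its adjusted p was under 0.05 in limma (two-sided, Benjamini-Hochberg over all genes tested). In bulk muscle, fewer cells of a type and less RNA per cell cannot be told apart. Skeletal muscle genes were present at high levels in every library (6 markers summed to between 27413 and 76605 TPM). *Myh7*, the slow myosin, was highest in soleus and *Myh4*, a fast myosin, in tibialis anterior, although *Myh4* stood at 4989 TPM in the cachectic soleus library numbered 7 against a group median of 56.7 TPM. The libraries fell into separate sets by 1 pseudogene, *Pcna-ps2*, which was at 5.60 to 22.8 TPM in 36 libraries and at 0 to 0.428 TPM in the other 23. In both leg muscles all cachectic libraries were in the higher set and all non-cachectic libraries in the lower, so this split and the melanoma cannot be told apart there. In the diaphragm the higher set held 8 of 10 cachectic rFibcd1, 9 of 10 cachectic mock, 6 of 10 non-cachectic rFibcd1 and 3 of 9 non-cachectic mock libraries. Libraries are named here by the number in their column, which the sample labels do not share.

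The 9 genes lie on 7 chromosomes of the mouse genome GRCm38, with the *Ifit* genes side by side on chromosome 19. Stat2-containing complexes bind the interferon-stimulated response element, whose core letters are GAAANNGAAA. These letters were searched on both strands in the 250 bases before each RefSeq transcription start (GRCm38.p6), in the 8 members with such a window, *Usp18* having none. Of the 8, 5 held at least 1 match, against 936 of 27025 genes with a window (3.46%) and 14 of 39 other interferon-stimulated genes. The stretches are shown because 5 of the 8 members with a window hold them, and because the copies *Ifit3* and *Ifit3b* are identical there, letter by letter. Capitals mark the matches, written 5′ to 3′ along the gene's own strand, so that a match on the other strand reads with T and C. A match is a description of letters and not of a bound site.
Ifit1 (chr19:34640773-34640825, plus strand): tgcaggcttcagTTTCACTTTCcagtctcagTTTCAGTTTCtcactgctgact
Ifit3 (chr19:34583361-34583428, plus strand): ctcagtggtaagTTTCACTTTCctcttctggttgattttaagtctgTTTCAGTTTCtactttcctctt
Ifit3b (chr19:34607757-34607824, plus strand): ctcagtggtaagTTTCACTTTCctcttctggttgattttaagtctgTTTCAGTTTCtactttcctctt
Isg15 (chr4:156200863-156200908, minus strand): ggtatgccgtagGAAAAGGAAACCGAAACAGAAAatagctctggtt
Rsad2 (chr12:26456551-26456584, minus strand): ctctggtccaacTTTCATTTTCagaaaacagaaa
Stat2 (chr10:128270264-128270297, plus strand): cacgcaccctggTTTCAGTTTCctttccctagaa
*Isg15* held 3 matches that overlap, *Ifit1* and *Ifit3* held 2 each, and *Rsad2* and *Stat2* held 1 each. The windows of *Ifit2*, *Irf7* and *Oasl2* did not hold these letters.

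All 9 members were detected in every library, at levels that ranged from 0.473 TPM (*Rsad2*) to 148 TPM (*Isg15*). For 8 of the 9, the mean log2 level was highest in the cachectic diaphragm with rFibcd1, and for *Ifit3* it was highest in the non-cachectic diaphragm with mock. The lowest group was the non-cachectic tibialis anterior for 7 members and the cachectic tibialis anterior for *Ifit2* and *Ifit3*. From one group to the next in the order of the 8 groups, the ranges overlapped for every member, so no single step in the order separated neighbors.

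**Figure D1:**
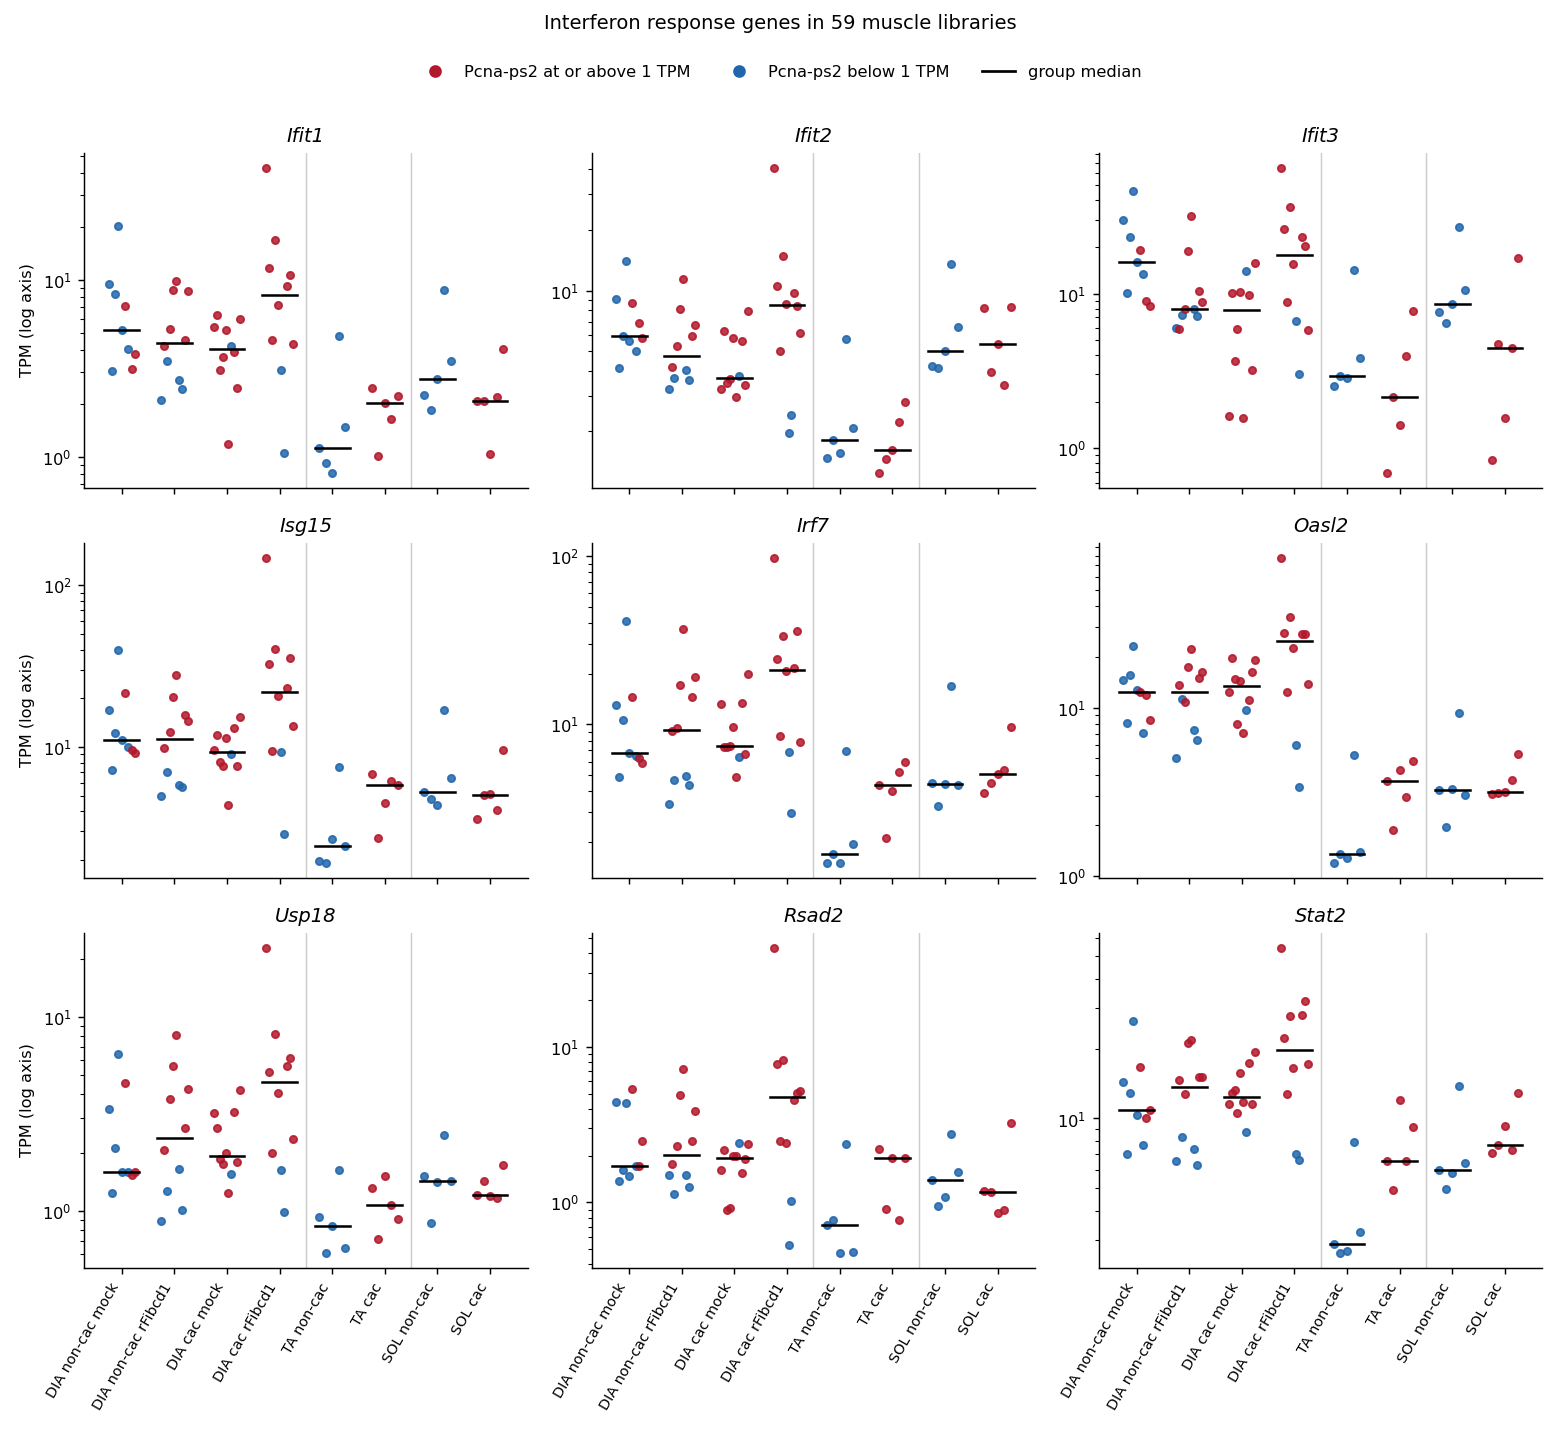
TPM of each of the 9 members (log axis) in every library of the 8 groups (DIA, diaphragm; TA, tibialis anterior; SOL, soleus), colored by the level of *Pcna-ps2*, with the group median as a bar. The highest point of every panel is the cachectic rFibcd1 library numbered 1, and in the leg muscles the highest non-cachectic point is the library numbered 64.

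The Ifit proteins bind viral RNA and limit its translation. In the diaphragm, *Ifit1* stood at 1.06, 8.21 and 42.9 TPM (lowest, median and highest) in the cachectic rFibcd1 group and at 1.19, 4.07 and 6.31 TPM in the cachectic mock group. In non-cachectic mice it stood at 2.11, 4.41 and 9.80 TPM with rFibcd1 and at 3.08, 5.20 and 20.2 TPM with mock. The 4 groups overlapped, and the widest spread was in the cachectic rFibcd1 group. *Ifit2* had the same layout at medians of 8.497, 3.70, 4.73 and 5.95 TPM in these groups, in the same order. *Ifit3* was at 3.04, 17.8 and 64.98 TPM, then 1.58, 7.87 and 15.7 TPM, then 5.92, 7.93 and 31.7 TPM, and last 8.32, 16.0 and 46.0 TPM. The cachectic mock group thus held the lowest *Ifit3* libraries of the diaphragm, with 5 of its 10 libraries under every non-cachectic library.

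Isg15 is a ubiquitin-like protein that is attached to other proteins during the response, and Usp18 removes it and also restrains signaling at the receptor. *Isg15* stood at 2.87, 21.9 and 148 TPM in the cachectic rFibcd1 diaphragm, and at 4.396, 9.27 and 15.4 TPM in the cachectic mock diaphragm. Its non-cachectic levels were 5.00, 11.1 and 28.0 TPM with rFibcd1 and 7.21, 10.99 and 39.8 TPM with mock. The cachectic rFibcd1 libraries thus reached both below and above all the others. *Usp18* stood at 0.987, 4.63 and 22.8 TPM and at 1.23, 1.92 and 4.18 TPM in the cachectic groups, with rFibcd1 and with mock. In non-cachectic mice it stood at 0.885, 2.37 and 8.08 TPM and at 1.23, 1.59 and 6.47 TPM. All 4 groups overlapped, and its highest library was number 1 of the cachectic rFibcd1 group.

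Rsad2 (viperin) is an enzyme that makes an antiviral nucleotide, and Oasl2 belongs to the oligoadenylate synthetase family of RNA sensors. *Rsad2* was at 0.531, 4.79 and 43.2 TPM in the cachectic rFibcd1 diaphragm and at 0.898, 1.94 and 2.40 TPM in the cachectic mock diaphragm. *Oasl2* was at 3.39, 24.999 and 77.7 TPM and at 7.06, 13.4 and 19.8 TPM in the same groups. Of the 10 rFibcd1 libraries, 7 were above every mock library for *Rsad2*, and 6 for *Oasl2*, and the lowest library of both genes was also an rFibcd1 library.

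Irf7 is the transcription factor that amplifies interferon production, and Stat2 carries the receptor's signal to the nucleus. *Irf7* stood at 2.96, 21.1 and 97.5 TPM in the cachectic rFibcd1 diaphragm and at 4.88, 7.42 and 19.8 TPM with mock. *Stat2* stood at 6.63, 19.6 and 54.3 TPM and at 8.70, 12.3 and 19.3 TPM. *Stat2* had the narrowest range of the 9 over the 59 libraries, with the highest level 20.6 times the lowest, and *Ifit3* the widest, at 93.9 times.

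The clearest separation was between muscles. In non-cachectic mice without rFibcd1, all 9 members were higher in diaphragm than in tibialis anterior, where 72.5% of all genes tested were called in either direction. Log2 differences ran from 0.82 (*Usp18*) to 2.21 (*Oasl2*), with adjusted p from 0.00217 down to 7.89e-09 (limma), above the median of all genes of 0.44. *Oasl2* was at 1.19, 1.35, 1.27, 5.25 and 1.39 TPM in the 5 non-cachectic tibialis anterior libraries and at 7.06 to 23.3 TPM in the 9 diaphragm libraries. It was the member whose groups did not overlap, while in each of the other 8 the tibialis anterior library numbered 64 reached the range of the diaphragm. Against soleus, 3 of 9 members were called and all were higher in diaphragm (*Oasl2* by 1.47, *Isg15* by 0.91 and *Stat2* by 0.72 on the log2 scale, limma), with 38.8% of all genes called. The other 6 differed by 0.15 to 0.71 in the same direction and did not pass. With the column number as a replicate block, 7 of 9 were called higher, where 48% of all genes were called in either direction. Same-numbered libraries of diaphragm and soleus correlated over 0.1 in 8 of 10 pairs, so their pairing is less certain than that of the other muscles. The unblocked count ran from 1 (without the soleus library numbered 62 or that numbered 63) to 5 (without that numbered 64) when single libraries were left out. Without the soleus library numbered 61, *Isg15* was no longer called. Tibialis anterior was lower than soleus for 5 of 9 members (*Ifit2*, *Isg15*, *Irf7*, *Oasl2* and *Stat2*, by 0.73 to 1.12 on the log2 scale, limma), with 69.5% of all genes called and a median over all genes of -0.47. None of the 5 was called after scaling by median ratios, which moved that median to -0.02 and left 53.3% of all genes called, and the count ran from 1 to 8 when the library numbered 64 of soleus or of tibialis anterior was left out. With the number as a replicate block all 9 were called lower, where 76.7% of all genes were called. Among libraries with the same column number, the 5 non-cachectic numbers had the diaphragm above tibialis anterior in 45 of 45 pairs of member and number, the diaphragm above soleus in 43 and soleus above tibialis anterior in 45. The 5 cachectic numbers had 43, 40 and 33 of 45, and soleus was above tibialis anterior for only 3 of 9 members in number 6 and 4 of 9 in number 8.

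The summed levels of macrophage markers moved with this order. The 6 macrophage markers in the table summed to 71.3 to 167 TPM in the non-cachectic mock diaphragm, to 40.7 to 53.3 TPM in soleus and to 9.35 to 21.7 TPM in tibialis anterior. The 5 T and NK cell markers summed to 1.21 to 21.4, 0.463 to 0.985 and 0.194 to 0.839 TPM in the same groups. Soleus and tibialis anterior overlapped in this sum, and in each 3 of the 5 genes were under 0.1 TPM in every library. The part of these cells in the member levels was not tested. Of the other interferon-stimulated genes, 46 of 46 tested were called higher in diaphragm than in tibialis anterior, where 64% of all genes were. Against soleus 27 of 46 were called higher, where 16.8% of all genes were, and 44 of 46 were positive.

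The melanoma comparison asked how the cachectic xenograft differed from the non-cachectic one in each muscle. In the mock-treated diaphragm, 1 of 9 members was called, against 33.5% of all genes. *Ifit3* was lower in cachectic mice. Its mean was 7.58 TPM with an SD of 5.10 in 10 cachectic libraries and 19.5 TPM with an SD of 12.3 in 9 non-cachectic libraries, for a log2 difference of -1.33 (SE 0.43, adjusted p = 0.0161, limma). The other 8 lay between -0.53 (*Ifit2* and *Ifit1*) and 0.10 (*Stat2*), and none passed. The median over the 9 members was -0.35, beside 0.20 over all genes tested, and *Oasl2* and *Stat2*, the 2 positive values, became negative under median-ratio scaling. That scaling moved the median of all genes from 0.20 to 0.01, with 15.8% of all genes called, and added *Ifit2* to the called members (-0.73, adjusted p = 0.0474, limma).

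**Figure D2:**
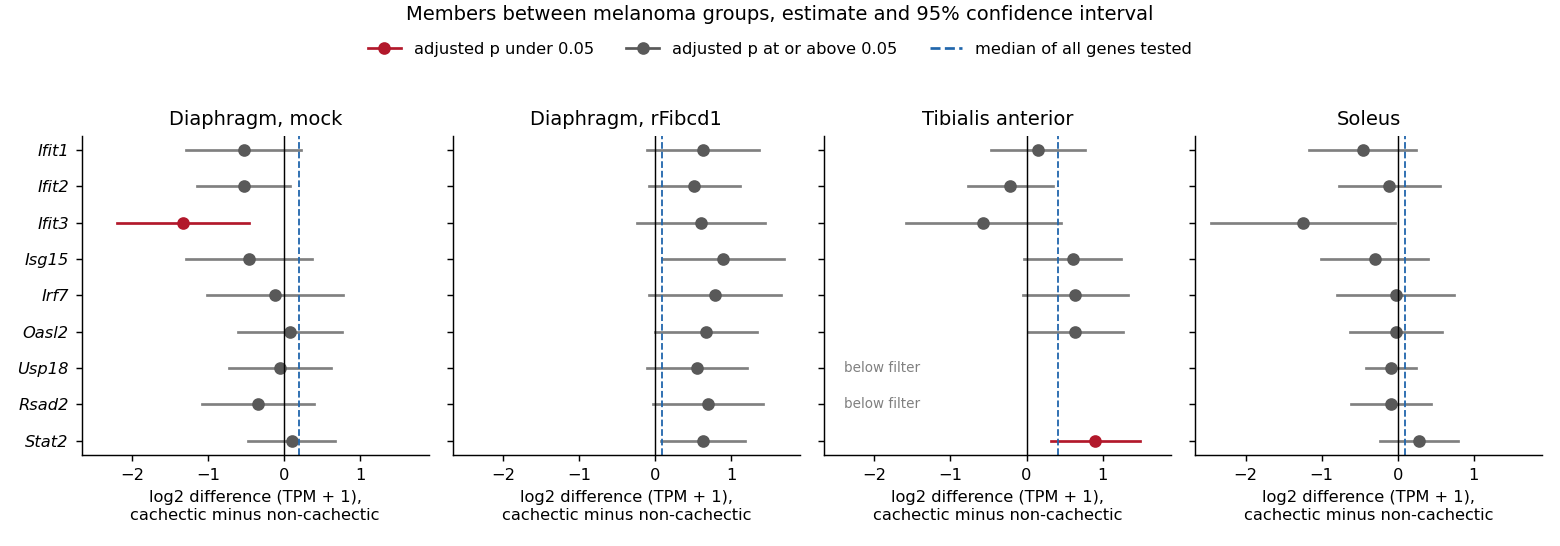
Log2 difference (TPM + 1) of each member, cachectic minus non-cachectic, in the 4 melanoma comparisons, with 95% confidence intervals and the median of all genes tested as a dashed line. *Ifit3* in the mock diaphragm (-1.33) and *Stat2* in tibialis anterior (0.90) were called, and *Usp18* and *Rsad2* were under the level filter in tibialis anterior.

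The call for *Ifit3* was lost when the gene was summed with a near copy, and the authors' way of placing reads that fit both is not given in the sources used here. *Ifit3* (chr19:34583531-34588731) and *Ifit3b* (chr19:34607970-34613401) share 521 of the 1646 windows of 100 bases in the *Ifit3* transcript (31.7%) letter for letter. Of the other members, *Ifit1* shared 84 of 2557 windows (3.29%) with *Ifit1bl2*, and the remaining 7 shared none with another gene. *Ifit3* made up 70.0 to 84.5% of the summed TPM of both genes in the 23 libraries with low *Pcna-ps2*, and 8.69 to 72.3% in the 36 libraries with high *Pcna-ps2*. The share tracked the column number across muscles. It was 12.6% in diaphragm, 8.69% in tibialis anterior and 10.3% in soleus for number 6, and 42.7, 29.6 and 35.9% for number 8. For number 9 the 3 muscles were within 0.62 percentage points of each other. With both genes summed, an alternative chosen after seeing the data, the difference in the mock diaphragm was -0.93 with an adjusted p of 0.0806 (limma), and no member was called. Among the 12 mock libraries with high *Pcna-ps2* the *Ifit3* difference was -0.92 with an adjusted p of 0.310 (limma).

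**Figure D3:**
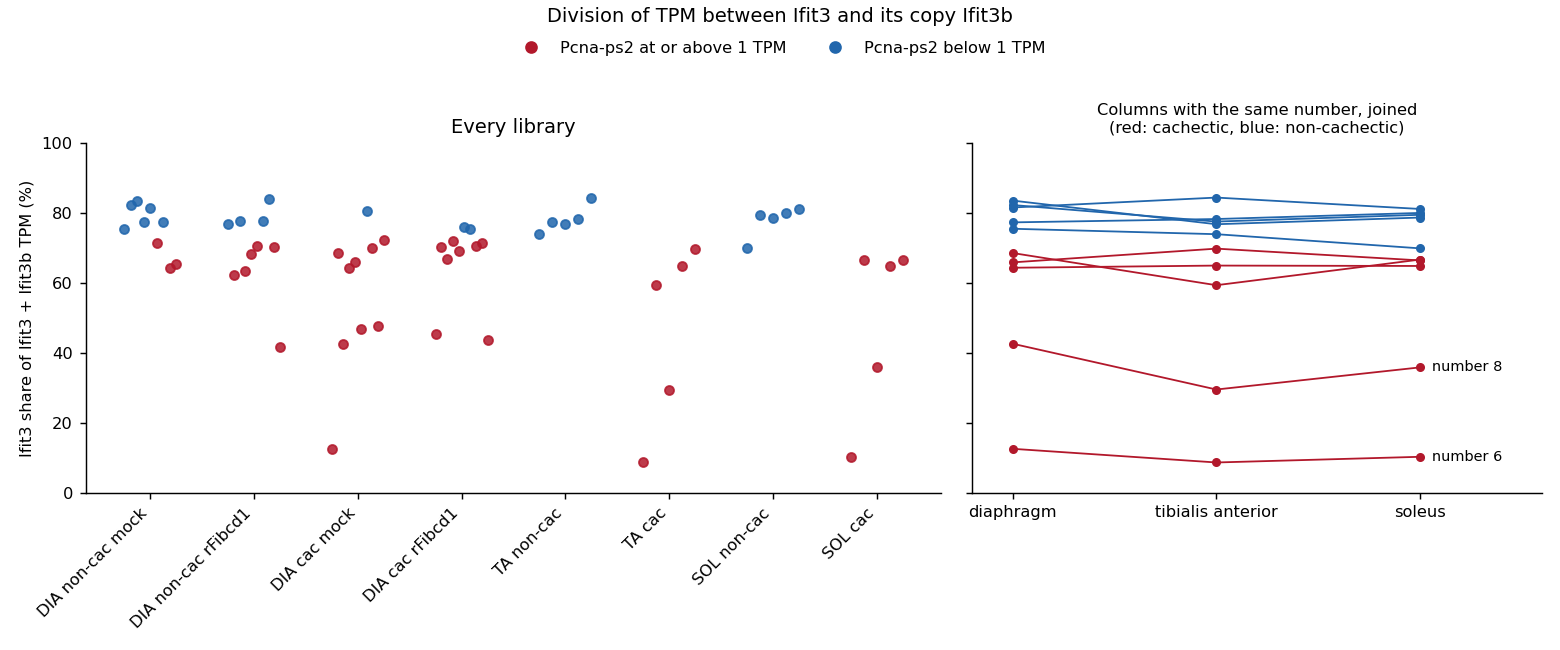
Share of *Ifit3* in the summed TPM of *Ifit3* and *Ifit3b* (%), in every library by group (left, colored by *Pcna-ps2*) and for columns of the same number joined across 3 muscles (right). Libraries with low *Pcna-ps2* sat between 70.0 and 84.5%, and numbers 6 and 8 were low in all 3 muscles.

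In the rFibcd1-treated diaphragm, 0 of 9 members were called between the melanomas (limma), against 9.11% of all genes. An unadjusted p under 0.05 was found for 2 (*Isg15* and *Stat2*), and for 3350 of the 13426 genes tested (limma). All 9 were higher in cachectic mice, by 0.51 (*Ifit2*) to 0.89 (*Isg15*, SE 0.40, adjusted p = 0.153, limma) on the log2 scale, beside a median over all genes of 0.08. Without the library numbered 14, the lowest of the cachectic rFibcd1 group for 7 members, *Isg15*, *Oasl2* and *Stat2* were called, by 1.17, 0.91 and 0.78. Without the library numbered 1, all 9 estimates were smaller and none was called, with *Isg15* at 0.58, *Ifit1* and *Rsad2* at 0.36 and *Ifit2* at 0.26.

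In tibialis anterior, 1 of the 7 members that passed the level filter was called, where 60.2% of all genes were. *Stat2* was at 6.55, 4.90, 11.95, 6.59 and 9.22 TPM in the cachectic libraries numbered 6 to 10 and at 2.88, 2.63, 2.67, 7.91 and 3.23 TPM in the non-cachectic libraries numbered 61 to 65. The groups overlapped through number 64 alone, and the log2 difference was 0.90 (SE 0.27, adjusted p = 0.0155, limma) beside a median over all genes of 0.41. Under median-ratio scaling, which moved that median to -0.01 with 40.3% of all genes called, the difference was 0.48 with an adjusted p of 0.129 (limma). *Isg15*, *Irf7* and *Oasl2* were 0.61, 0.64 and 0.64 higher without passing. They passed, along with *Stat2*, when the library numbered 64 or that numbered 7 was left out, which gave 4 called members. The share of all genes called without either library is not given here. *Ifit1*, *Ifit2* and *Ifit3* were at 0.15, -0.21 and -0.57, and *Ifit3* turned to 0.19 when summed with *Ifit3b*.

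In soleus 0 of 9 members were called (limma), against 25.1% of all genes. Beside 4593 of the 11957 genes tested, 1 member had an unadjusted p under 0.05 (limma). That was *Ifit3*, at 0.835, 4.69, 1.57, 4.44 and 17.1 TPM in cachectic and at 7.62, 6.41, 8.61, 27.0 and 10.5 TPM in non-cachectic mice, a difference of -1.24 (adjusted p = 0.121, limma). Of the 5 cachectic libraries, 4 were below all 5 non-cachectic ones, and number 10 was the exception. Without it *Ifit3* was called lower (-1.72, adjusted p = 0.0173, limma). With *Ifit3b* added the difference over all libraries was -0.58 (adjusted p = 0.346, limma), no member had an unadjusted p under 0.05, and number 6 (8.09 TPM in sum) was no longer below number 62 (8.05 TPM). The remaining members were between -0.46 (*Ifit1*) and 0.28 (*Stat2*).

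The difference of the melanoma effect between muscles was tested directly. No member was called for diaphragm against tibialis anterior (5.04% of all genes called), diaphragm against soleus (2.52%) or tibialis anterior against soleus (20.4%). An unadjusted p under 0.05 was found for 3, 0 and 0 of the 9, and for 3295, 2134 and 5104 of the 13501 genes tested (limma). All 9 estimates were negative for diaphragm against tibialis anterior (-0.19 for *Usp18* to -1.07 for *Isg15*), beside a median over all genes of -0.18. These fits treat the libraries as unpaired. Same-numbered libraries correlated over 0.1 in all 10 pairs of diaphragm and tibialis anterior and in all 10 pairs of tibialis anterior and soleus. With the number as a replicate block, 5 members were called lower for diaphragm against tibialis anterior, where 16.2% of all genes were called in either direction (*Stat2* by -0.93, adjusted p = 0.00265, *Isg15* by -1.17, adjusted p = 0.0103, and *Ifit3*, *Irf7* and *Rsad2*, limma). In that fit 3 of 9 members were called higher for tibialis anterior against soleus (*Stat2* by 0.62, *Isg15* by 0.91 and *Oasl2* by 0.66), where 42% of all genes were called, a larger share than of the members.

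The comparison of rFibcd1 with mock asked whether the injected protein went with a different level of the response. In cachectic mice, 0 of 9 members were called, against 0.0447% of all genes (6 genes, limma). All 9 were higher with rFibcd1, by 0.51 (*Stat2*) to 1.19 (*Ifit3*) on the log2 scale. An unadjusted p under 0.05 was found for 7 of them, and for 1412 of the 13426 genes tested (limma). Members rise and fall together, so these 7 are not independent of each other. The adjusted p ran from 0.309 (*Ifit3* and *Rsad2*) to 0.581 (*Oasl2*), and the median over the members was 0.83, beside 0.03 over all genes. Without the library numbered 1 all 9 stayed positive, at 0.32 (*Oasl2*) to 0.96 (*Ifit3*), and none was called. Of the 5 T and NK cell markers, the 3 that could be tested had positive differences here (median 0.81) and none was called. The 5 summed to 0.697, 7.43 and 107 TPM (lowest, median and highest) with rFibcd1 and to 0.934, 2.93 and 9.94 TPM with mock. Macrophage markers had medians of 285 and 297 TPM in sum. The part of these cells in the member levels was not tested. For each member 5 to 7 of the 10 rFibcd1 libraries were above every mock library, and for each but *Ifit3* 1 or 2 were below every mock library. *Isg15* was at 148, 32.4, 9.40, 40.5, 20.7, 9.24, 2.87, 23.0, 35.6 and 13.5 TPM in the rFibcd1 libraries numbered 1, 2, 3, 4, 5, 11, 14, 16, 17 and 18. With mock it was at 9.57, 11.8, 8.08, 7.61, 11.4, 4.396, 8.98, 13.2, 7.64 and 15.4 TPM. There were 6 rFibcd1 libraries above all 10 mock libraries, and number 14 was below them all.

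The *Pcna-ps2* split was nearly balanced between these groups (8 of 10 and 9 of 10 libraries in the higher set), but member levels differed along it within the rFibcd1 groups. Within the cachectic rFibcd1 group, the 8 libraries with high *Pcna-ps2* had higher medians than the 2 with low *Pcna-ps2* (numbers 11 and 14) for all 9 members, by a factor of 3.65 (*Stat2*) to 6.63 (*Rsad2*), and for 8 of the 9 there was no overlap. The same held in the non-cachectic rFibcd1 group, with higher medians for 9 of 9 members (a factor of 1.33 for *Ifit3* to 3.53 for *Usp18*) and no overlap for 7. In the mock groups the higher set had the higher median for 5 of 9 members (cachectic) and 2 of 9 (non-cachectic). The same counts over all genes were not made, so these values do not set the members apart from other genes. They are descriptions of libraries and not of study groups, and their cause was not tested.

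With the 26 diaphragm libraries of high *Pcna-ps2* alone, 8 of 9 members were called higher with rFibcd1 than with mock in cachectic mice (8 against 9 libraries, limma), where 5.57% of all genes were called. Log2 differences were 0.79 (*Stat2*) to 1.70 (*Ifit3*), and *Usp18* missed the threshold at 0.97 with an adjusted p of 0.0586. Without the library numbered 1 as well, an alternative chosen after seeing the data, 2 of 9 were called (*Isg15*, 1.18, adjusted p = 0.0490, and *Rsad2*, 1.10, adjusted p = 0.0470, limma), with 0.674% of all genes called. With all libraries and *Pcna-ps2* as a term of the fit, 0 members were called, where 0.134% of all genes were, all 9 were positive with an unadjusted p under 0.05, and adjusted p ran from 0.108 to 0.262 (limma). The direction was the same in each of these fits, but they share most of their libraries and are not independent of each other. Of the cachectic libraries, the filter removed rFibcd1 numbers 11 and 14 and mock number 22. Their mean over the 9 members was -1.30, -1.84 and -0.04 from the group mean on the log2 scale. So the call depended on which libraries were kept.

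**Figure D4:**
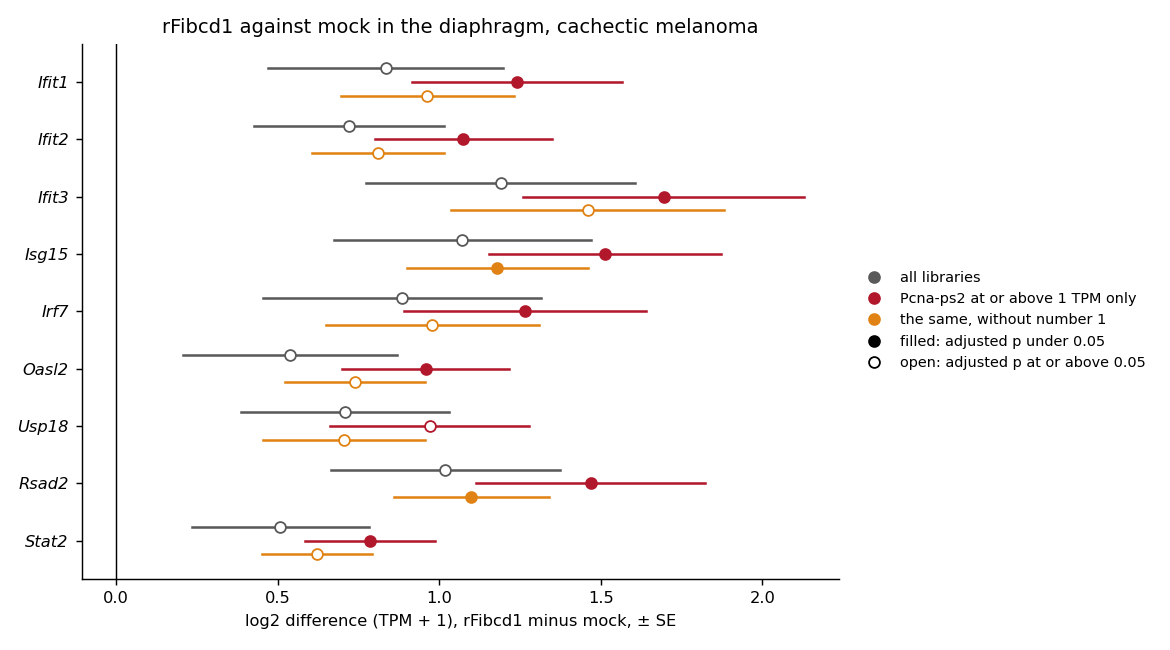
Log2 difference (TPM + 1) of each member, rFibcd1 minus mock, in the diaphragm of mice with the cachectic melanoma, ± SE, from all libraries, from those with *Pcna-ps2* at or above 1 TPM, and from the latter without number 1. All estimates were positive, and filled points (8 of 9 in the set with high *Pcna-ps2*, 2 of 9 without number 1) had an adjusted p under 0.05.

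The library numbered 1 was the highest of its group for all 9 members, at 3.18 times (*Stat2*) to 9.56 times (*Rsad2*) the median of the other 9. It also had the highest sum of macrophage markers (861 TPM against a group median of 285) and of T and NK cell markers (107 TPM against 7.43), and *Ifng*, the gene for interferon gamma, stood at 9.39 TPM there. At the other end, number 14 was at 0.115 to 0.299 times the median of the others and had the lowest sums of both marker lists (97.2 and 0.697 TPM). The part of these cells in the member levels was not tested.

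In non-cachectic mice, 0 of 9 members were called between rFibcd1 and mock (limma), against 0.417% of all genes. None had an unadjusted p under 0.05, while 2332 of the 13426 genes tested did (limma). The estimates were -0.74 (*Ifit3*) to 0.10 (*Usp18*), and 8 were negative. Their 95% intervals were wide, as for *Isg15* (-1.11 to 0.54). With the libraries of high *Pcna-ps2* alone, 7 of these estimates changed sign without being called. The interaction, the rFibcd1 difference in cachectic minus that in non-cachectic mice, was positive for all 9 (0.53 for *Stat2* to 1.93 for *Ifit3*). It was called for 0 of 9 (0.0223% of all genes, adjusted p from 0.483 to 0.718, limma). An unadjusted p under 0.05 was found for 5 of the 9 and for 1180 of the 13426 genes tested (limma). The melanoma and rFibcd1 comparisons of the diaphragm share groups, so their values are not independent.

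One column number stood apart in every muscle. The non-cachectic library numbered 64 was the highest of its group for 8 of 9 members in diaphragm, 9 of 9 in tibialis anterior and 9 of 9 in soleus, 26 of 27 in all. It stood at 1.93 to 6.21 times the median of the other libraries in diaphragm, 2.21 to 4.94 times in tibialis anterior and 1.74 to 3.83 times in soleus. *Irf7* was at 41.2, 6.96 and 16.8 TPM in its 3 muscles, while the next highest libraries of the same groups were at 14.4, 1.93 and 4.48 TPM. The mean over the 9 members was 1.24, 1.07 and 1.03 above the group mean on the log2 scale. Its *Pcna-ps2* was low in all 3 muscles. Its macrophage markers were the highest of the non-cachectic mock diaphragm (167 TPM) and tibialis anterior (21.7 TPM) groups, but not of soleus (43.1 TPM, in a group range of 40.7 to 53.3), where the T and NK cell markers were the lowest of the group (0.463 TPM). Liver markers summed to 7024 TPM in its diaphragm library, against a group median of 15.4 TPM, and to 0.246 and 0.193 TPM in its tibialis anterior and soleus libraries.

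No other number was so uniform. Number 10 was the highest cachectic soleus library for 9 of 9 members, at 1.44 to 5.68 times the median of the others, and 13 of 27 over the 3 muscles. Its T and NK cell markers (5.35 TPM) and *Ifng* (0.297 TPM) were also the highest of that group. Number 62 was the lowest for 18 of 27. Leaving number 64 out of the non-cachectic tibialis anterior moved *Ifit2* from -0.21 to 0.05, and leaving it out of soleus moved *Isg15*, *Irf7*, *Oasl2*, *Usp18*, *Rsad2* and *Ifit2* from negative to positive, none of them called.

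**Figure D5:**
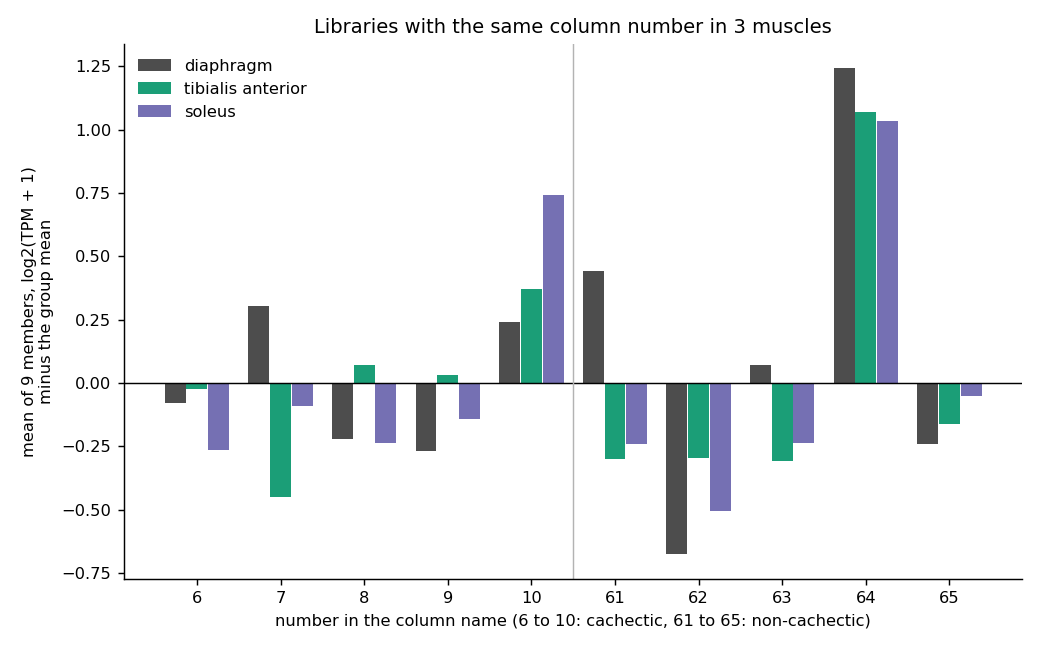
Mean over the 9 members of log2(TPM + 1) minus the group mean, for the libraries of the 10 column numbers that occur in diaphragm (mock), tibialis anterior and soleus. Number 64 is over 1 above its group in all 3 muscles, and number 62 is below in all 3.

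The members rose and fell together from library to library. After centring within each of the 8 groups, the 36 pairs of members had a median Pearson r of 0.87 over 59 libraries (0.67 for *Ifit3* and *Rsad2* to 0.96 for *Isg15* and *Irf7*) and a median Spearman rho of 0.80. Without the 2 libraries farthest from the middle, the median r was 0.83. These values are descriptions, since libraries share their scaling to a fixed total and their cell makeup, and leg and diaphragm libraries may share a mouse. *Isg15* followed the mean of the standardized members most closely (r = 0.98) and *Ifit3* least (r = 0.84). Each member is part of that mean, which raises its r, while genes that are not members have no part in it. Among 12828 genes, the 10 that were most like that mean and not members were *Xaf1* (0.97), *Zbp1* (0.96), *Herc6*, *Rtp4*, *Ifi44*, *Phf11d*, *Gm4951*, *Cmpk2*, *Parp9* and *Parp14* (0.94), of which 9 were on the list of other interferon-stimulated genes. Over the same libraries the mean had an r of 0.80 with the T and NK cell markers, 0.72 with macrophage markers, 0.65 with *Ifng*, 0.55 with plasmacytoid dendritic cell markers, 0.50 with B cell markers and with *Pcna-ps2*, 0.36 with neutrophil, 0.21 with endothelial and 0.19 with liver markers, and -0.37 with muscle markers.

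The ligands themselves were scarcely seen. Of 9 genes for type I and type III interferons, 6 were listed at 0 in all 59 libraries and the highest level was 0.0775 TPM (*Ifnb1*, in the library numbered 1). *Ifng* was listed at 0 in 31 libraries and reached 1 TPM in 1. None of the ligands passed the level filter, so none was tested. What such levels say about interferon protein from other organs or from single cells was not measured.

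Receptor and signaling genes were tested between the melanomas as well. In tibialis anterior, where 56.4% of all genes were higher, 4 of 5 tested receptor genes were higher in cachectic mice (*Ifnar2* by 1.06, *Ifngr1* by 0.92 and *Il10rb* by 0.65 on the log2 scale), as were 10 of 12 signaling genes, among them *Socs3*, *Irf1* and *Irf9* (3.78, 1.13 and 0.98), while *Irf5* was lower (-1.96). Socs3, a brake on cytokine signaling that IL-6 type cytokines induce, was higher in all 4 melanoma comparisons, at 50.8 against 7.70 TPM in the mock diaphragm (2.45), 32.97 against 8.44 TPM with rFibcd1 (1.59) and 25.99 against 3.20 TPM in soleus (2.62). In the mock diaphragm 2 of 5 receptor genes (*Ifngr1* by 0.63 and *Il10rb* by 0.45) and 2 of 13 signaling genes (*Socs3* and *Irf3*) were higher, where 30.9% of all genes were. With rFibcd1 0 of 5 and 1 of 13 (*Socs3*) were higher, against 7.14% of all genes. In soleus, where 17.5% of all genes were higher and 7.54% lower, 1 of 5 receptor genes was higher (*Ifnar2*, 0.42) and 1 lower (*Ifngr2*, -0.26). Of 11 signaling genes there, 2 were higher (*Socs3* and *Irf2*) and *Jak2*, a kinase of the interferon gamma receptor, was lower (-0.49). The 4 ISG15 conjugation enzymes were each higher in tibialis anterior, *Trim25* most (1.18), where 56.4% of all genes were higher. In the mock diaphragm only *Trim25* was called (0.45), against 30.9% of all genes called higher. None of them was called in the rFibcd1 diaphragm or in soleus.

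The list of other interferon-stimulated genes had 50 members. In the mock diaphragm 6 of the 47 tested were called higher and none lower, where 30.9% of all genes were called higher, with calls led by *Ifitm1* (23.4 against 4.11 TPM, 2.09), *Oas2* (0.73) and *Ifitm3* (342 against 227 TPM, 0.63). *Ifitm1* and *Ifitm3*, membrane proteins that hinder virus entry, were also higher in the rFibcd1 diaphragm (1.62 and 0.90), in tibialis anterior (2.14 and 1.60) and in soleus (1.37 and 0.76). In the rFibcd1 diaphragm 3 of 47 were higher, where 7.14% of all genes were. In tibialis anterior 25 of 36 were higher, against 56.4% of all genes. In soleus 2 of 37 were higher, against 17.5% of all genes, and 1 (*Slfn5*, -0.51) was lower. The median log2 difference of this list was 0.07 in the mock diaphragm, 0.51 in the rFibcd1 diaphragm, 0.71 in tibialis anterior and 0.08 in soleus, beside medians of all genes of 0.20, 0.08, 0.41 and 0.09. For rFibcd1 against mock in cachectic mice, 0 of 47 were called and 45 were positive (limma). There 0.0447% of all genes were called, and the median of all genes was 0.03. Of the 17 interferon-gamma-induced genes in that comparison, 0 were called and 17 were positive, with a median of 1.18. In the mock diaphragm 1 of these 17 was called and lower in cachectic mice (*Cxcl11*, a T cell chemokine, -0.52), where 30.9% of all genes were called higher and 2.67% lower. In tibialis anterior 5 of 11 were higher, against 56.4% of all genes (*Igtp*, *Gbp9* and *Iigp1* by 1.96, 1.82 and 1.68).

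The list of nucleic acid sensors and their adaptors included *Tmem173*, the gene of the adaptor STING, and *Myd88*, an adaptor of Toll-like and IL-1 receptors. *Tmem173* was higher in cachectic mice in the mock diaphragm (16.0 against 7.31 TPM, 1.02), the rFibcd1 diaphragm (0.81), tibialis anterior (1.94) and soleus (1.03). *Myd88* was higher in the mock diaphragm, tibialis anterior and soleus (0.80, 1.33 and 0.75). Counts for the list were 2 of 13, 1 of 13, 6 of 8 and 2 of 8 in the 4 melanoma comparisons, none lower, where 30.9, 7.14, 56.4 and 17.5% of all genes were called higher. Macrophage markers were higher at the same time for 2 of 6 in the mock diaphragm, 1 of 6 in the rFibcd1 diaphragm, 4 of 4 in tibialis anterior and 1 of 5 in soleus, to be read against the same shares. Neutrophil markers were called higher for 3 of 4, 0 of 4, 2 of 2 and 2 of 2 in the same order, with medians of 1.32, 0.98, 1.95 and 1.52 on the log2 scale. The part of these cells in the member and list values was not tested.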

How the data were processed

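The authors aligned reads to the mouse genome GRCm38 (mm10) with CLC Genomics Workbench and deposited 1 table of TPM for 59 libraries and 47643 gene symbols. The annotation is not given in the sources used here, and the labels and the study's methods name different kits and instruments. Each column sums to the same total, so depth is unknown and no counting interval was computed. Columns were placed in the 8 labelled groups by their names. Their numbers match no label. Same-numbered libraries deviated together from their group means in all 10 pairs of diaphragm and tibialis anterior (r of 0.133 to 0.502) and of tibialis anterior and soleus (0.196 to 0.493), of which 10 and 8 correlated best with their own number, so the numbers were taken to pair these muscles in a second fit. The labels call the samples biological replicates. Members and gene lists were chosen with earlier results of these data known.

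Values were compared as log2(TPM + 1) with limma 3.58.1 (R 4.3.3, empirical Bayes with a trend) across all genes with TPM of at least 1 in as many libraries as the smallest group of the fit. Fits held the 4 diaphragm groups, each leg muscle alone, and the 6 groups without rFibcd1, for 13 comparisons. The code was tested on simulated data. The 9 members were described in every comparison. Of other lists, the 3 highest and 3 lowest called genes of each melanoma comparison could be named, as could each ligand, receptor and signaling gene and the 10 genes most like the members. Alternatives were a pseudocount of 0.1, no filter, a mean TPM of at least 5, median-ratio scaling, the Dunn test, *Pcna-ps2* as a term or a filter, fits of only the groups compared, the column number as a replicate block, leaving out each library and, added later, *Ifit3* and *Ifit3b* summed and number 1 left out. Positions come from GENCODE and promoter sequence from RefSeq.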

Additional observations from a re-analysis of the deposited data

Results flagged for a closer look

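Of 72 sets of 1 member in 1 group, 14 had a highest library whose distance to the next, divided by the range of the group, passed Dixon's 95% limit. Chance gives about 1 such set in 20. They came from 5 libraries. Column number 64 gave 8 of them in the non-cachectic tibialis anterior, with *Ifit1* at 4.799, *Ifit2* at 5.75, *Ifit3* at 14.2, *Isg15* at 7.56, *Irf7* at 6.96, *Oasl2* at 5.25, *Rsad2* at 2.37 and *Stat2* at 7.91 TPM. The same number gave 3 in the non-cachectic soleus (*Isg15* at 16.9, *Irf7* at 16.8 and *Stat2* at 13.7 TPM) and *Irf7* at 41.2 TPM in the non-cachectic mock diaphragm. *Rsad2* was at 43.2 TPM in number 1 of the cachectic rFibcd1 diaphragm and at 3.23 TPM in number 10 of the cachectic soleus. Members of 1 library rise together, so these sets are not independent of each other. The cause was not tested.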

How the results depend on the processing

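Of 4835 member values recomputed under an alternative, 4648 kept their direction and their side of the threshold, 29 fell short of it, 48 passed it and 110 changed sign, none of the 110 having been called. Counts of called members moved by over 1.5 times, or as named, under these alternatives. In the mock diaphragm (1) the count was 2 with median-ratio scaling, with *Pcna-ps2* as a term and with only the 2 groups compared (15.8, 15.3 and 50.1% of all genes called). It was 0 with high *Pcna-ps2* alone (5.69%, and 6.37% without number 1 as well) and with *Ifit3* and *Ifit3b* summed (33.5%). For rFibcd1 in cachectic mice (0) it was 8 with high *Pcna-ps2* alone (5.57% of all genes called) and 2 without number 1 as well (0.674%). In tibialis anterior (1) it was 0 with median-ratio scaling and with the Dunn test (40.3 and 66.1% of all genes called). For tibialis anterior against soleus (5) it was 3 with no filter (44% of all genes called) and 0 with median-ratio scaling (53.3%). It was 6 with a pseudocount of 0.1 (72.8%) or with *Ifit3* and *Ifit3b* summed (69.5%). With the column number as a replicate block it was 9 there, 7 for diaphragm against soleus (3), where 48% of all genes were called, 5 for the melanoma effect in diaphragm against tibialis anterior (0) and 3 for that in tibialis anterior against soleus (0). The labels tie no number to a mouse. For diaphragm with soleus, where 8 of 10 same-numbered pairs had a correlation over 0.1 (0.0101 to 0.450), the pairing is less certain than for the other muscles. The block changed no other count. The causes of these changes were not tested. Beside 0 calls by limma, the Dunn test called 0 members in the rFibcd1 diaphragm, for rFibcd1 in cachectic and in non-cachectic mice and in soleus, with 0, 4, 0 and 0 at an unadjusted p under 0.05. The Dunn test was not run for the interaction or for any comparison across muscles. The fit of only the groups compared was run for the diaphragm alone, without the interaction, each leg muscle being fitted alone already. No block could be fitted within a muscle, where the groups compared share no number. Leaving out single libraries gave 1 to 1 called in the mock diaphragm, 0 to 3 in the rFibcd1 diaphragm, 0 to 0 for rFibcd1 in either melanoma, the interaction and the 3 differences of effect, 1 to 4 in tibialis anterior, 0 to 1 in soleus, 9 to 9 for diaphragm against tibialis anterior, 1 to 5 for diaphragm against soleus and 1 to 8 for tibialis anterior against soleus. The shares of all genes called are not given for these fits without single libraries. Signs of uncalled log2 differences changed as follows. With median-ratio scaling *Oasl2* became -0.14 and *Stat2* -0.12 in the mock diaphragm, *Usp18* -0.036 for rFibcd1 in non-cachectic mice, *Ifit1* -0.15 in tibialis anterior, and *Oasl2* -0.056 and *Usp18* -0.079 for the effect in diaphragm against soleus. With *Pcna-ps2* as a term *Oasl2* became -0.42 and *Stat2* -0.39 in the mock diaphragm and *Usp18* -0.11 for rFibcd1 in non-cachectic mice. With high *Pcna-ps2* alone, with or without number 1, *Irf7* became 0.15 and *Usp18* 0.0039 in the mock diaphragm, and for rFibcd1 in non-cachectic mice *Ifit1* became 0.47, *Ifit3* 0.059, *Isg15* 0.33, *Irf7* 0.87, *Oasl2* 0.49, *Rsad2* 0.18 and *Stat2* 0.40. *Ifit3* became 0.19 in tibialis anterior when summed with *Ifit3b* and 0.040 for the effect in diaphragm against soleus with a pseudocount of 0.1. With the replicate block *Oasl2* and *Usp18* became -0.055 and -0.046 for that effect. Leaving out single libraries gave, in the mock diaphragm, *Irf7* -0.24 to 0.13, *Oasl2* -0.011 to 0.19 and *Usp18* -0.13 to 0.089. For rFibcd1 in non-cachectic mice it gave *Irf7* -0.22 to 0.23, *Oasl2* -0.15 to 0.065, *Usp18* -0.043 to 0.25, *Rsad2* -0.16 to 0.091 and *Stat2* -0.11 to 0.11. In tibialis anterior it gave *Ifit2* -0.32 to 0.049. In soleus it gave *Ifit2* -0.24 to 0.15, *Isg15* -0.50 to 0.0058, *Irf7* -0.21 to 0.33, *Oasl2* -0.19 to 0.26, *Usp18* -0.20 to 0.027 and *Rsad2* -0.30 to 0.064. For the effect in diaphragm against soleus it gave *Ifit1* -0.37 to 0.13, *Ifit3* -0.44 to 0.39, *Isg15* -0.47 to 0.029, *Irf7* -0.45 to 0.16, *Oasl2* -0.19 to 0.26 and *Usp18* -0.082 to 0.18, and for that in tibialis anterior against soleus *Ifit2* -0.36 to 0.16. TPM keeps no depth, so counting error of the low members *Usp18* and *Rsad2* cannot be given.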
